A study of Mus musculus with 8 samples.

Results

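Mesothelin, uroplakin and simple-epithelial keratin transcripts were present in both libraries of adipose-tissue CD4+ CD25+ T cells from Id2-deficient mice, and each of the genes was at no more than 5.18 TPM in the other 6 libraries. The set consists of 10 genes, taken by name from the 45232 rows of the deposited expression table: the mesothelial surface genes Msln and Muc16, the uroplakins Upk1b and Upk3b, the keratins Krt19, Krt18, Krt8 and Krt7, the membrane gene Nkain4 and the transcription factor gene Wt1. All 10 names were found, and all 10 passed the filter on low values, at least 1 TPM in at least 2 libraries, which 13376 rows passed. For 8 of the 10 this came from the Id2-deficient adipose libraries alone, while Krt18 and Muc16 also reached 1 TPM in 2 spleen libraries. The genes were chosen by their measured difference between Id2-deficient and wild-type adipose tissue, so those levels are a description, and calls in comparisons that use these libraries are read as no evidence.

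RNA came from cells carrying both CD4 and CD25, a gate rich in regulatory T cells, sorted from C57BL/6 mice with at least 500 cells per library. The 4 groups were Id2-deficient (Id2 CKO, called KO) visceral adipose tissue, wild-type (WT) visceral adipose tissue, KO spleen and WT spleen, each with 2 libraries numbered 2 and 3. The labels give the KO genotype as a conditional knockout and give no driver of the deletion, no age or sex, and do not say whether separate mice stand behind the libraries of a group, so the spread between them may be in part technical. Levels are in TPM (transcript share of a library, corrected for transcript length), which allows comparison between genes. The table keeps no read depth, and a value of 0 is given as listed at 0.

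Mesothelium is the single layer of cells that lines the peritoneal, pleural and pericardial cavities and covers the organs in them, visceral fat depots included. It derives from mesoderm but carries keratins, which epithelia use for their intermediate filaments. A keratin filament is built from pairs of a type I and a type II chain. Mesothelin is a surface protein on a lipid anchor that binds the large mucin Muc16, and uroplakins are membrane proteins best known from the plaques of the bladder lining. Wt1 is a zinc finger transcription factor of developing and adult mesothelium.

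Of the 10 genes, 5 had a promoter sequence in the RefSeq table used here (GRCm38.p6). The keratin promoters are shown because Krt7, Krt8 and Krt18 lie in the same keratin cluster and were at their highest in the same libraries. Krt8 lies beside Krt18, and Krt7 lies further away. Each stretch is the 250 bases before the annotated start, read 5′ to 3′ on the gene's strand. Capitals mark CACCTG, a form of the E-box, the site type bound by the E proteins that Id2 restrains. Krt7 lies on chromosome 15 at chr15:101412153-101412402 on the plus strand, Krt8 at chr15:102004343-102004592 on the minus strand and Krt18 at chr15:102027966-102028215 on the plus strand.
Krt7: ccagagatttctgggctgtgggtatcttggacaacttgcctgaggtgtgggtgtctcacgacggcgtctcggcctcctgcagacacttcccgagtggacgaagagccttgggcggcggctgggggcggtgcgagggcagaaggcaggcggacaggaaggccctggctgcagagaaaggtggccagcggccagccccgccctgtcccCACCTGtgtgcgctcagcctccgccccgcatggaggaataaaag
Krt8: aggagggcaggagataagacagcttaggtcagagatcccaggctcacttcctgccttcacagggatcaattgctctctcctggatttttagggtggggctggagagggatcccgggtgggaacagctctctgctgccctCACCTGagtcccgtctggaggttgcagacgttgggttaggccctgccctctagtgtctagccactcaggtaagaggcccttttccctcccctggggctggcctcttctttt
Krt18: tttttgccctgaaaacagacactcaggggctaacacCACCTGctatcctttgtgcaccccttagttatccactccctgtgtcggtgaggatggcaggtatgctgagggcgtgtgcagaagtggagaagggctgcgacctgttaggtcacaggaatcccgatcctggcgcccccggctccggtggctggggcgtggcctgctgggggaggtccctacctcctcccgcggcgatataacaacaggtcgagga
The hexamer CACCTG, searched on both strands, began 44 bases before the start in Krt7, 111 bases before it in Krt8 and 214 bases before it in Krt18. It was in 3 of the 5 promoters, with none in the windows of Upk3b and Muc16, and in 17.2% of the 32851 RefSeq promoter windows of the same length. It was kept from 9 motifs after their matches had been seen, and a match of letters is not a binding site. CAGCTG, another E-box form among the 9, was in 0 of the 5 promoters and in 13.0% of the 32851 windows. A link of these promoters to Id2 was not tested.

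T cell genes were high in all libraries. Each of 11 T cell core genes was above 1 TPM in every library, and they summed to 9439 and 3560.0 TPM in the KO adipose libraries, 8818 and 7057 TPM in WT adipose tissue and between 7514 and 9821 TPM in spleen. Id2, the targeted gene, had 1499 and 1298 TPM in the KO adipose libraries and 2249 and 3679 TPM in the WT ones. In the KO spleen libraries it had 72.1 and 265 TPM, and in the WT ones 274 and 346 TPM. Foxp3, the lineage factor of regulatory T cells, was low in KO adipose 2 (7.40 TPM) and KO spleen 2 (8.27 TPM) and ran from 93.5 to 266 TPM elsewhere. The KO adipose libraries stood apart in the number of genes above 0, 13184 and 20684, against 14717 to 16822 in the other 6.

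The 10 genes summed to 338 and 670.5 TPM in the KO adipose libraries, against 0.912 and 0.743 TPM in the WT ones. In the spleen libraries the sums were 0.882 and 3.39 TPM in KO and 0.00627 and 8.22 TPM in WT. Both KO adipose libraries lay above all the others, while the sums of WT adipose tissue, KO spleen and WT spleen overlapped. Set against the T cell core genes of the same library, the sum was 3.58% and 18.8% in KO adipose tissue and at most 0.109% in the other libraries, in WT spleen 3. In such bulk samples a change in the number of cells of a type cannot be told apart from a change in RNA per cell.

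**Figure D1:**
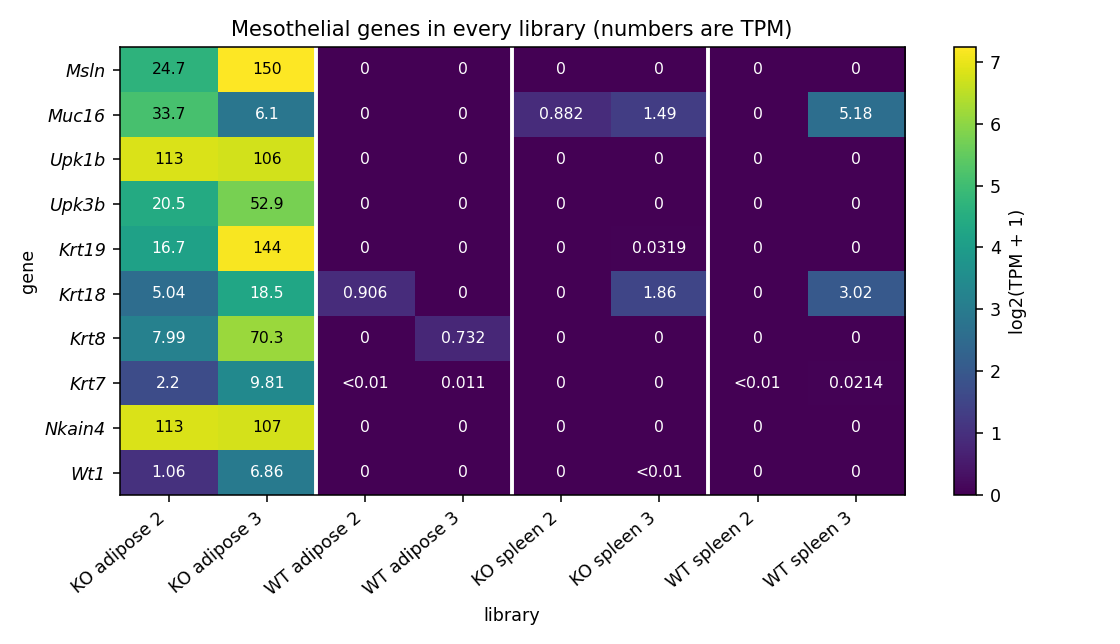
Level of each of the 10 genes (rows) in each library (columns), coloured by log2(TPM + 1), with the TPM value printed in each cell. The 2 KO adipose libraries on the left hold values from 1.06 to 149.6 TPM, and the highest value in the other 6 libraries is 5.18 TPM, for Muc16 in WT spleen 3.

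Msln, which encodes mesothelin, was at 24.7 and 149.6 TPM in the KO adipose libraries, and was listed at 0 in both WT adipose libraries and in all 4 spleen libraries. Muc16, the mucin that mesothelin binds, was at 33.7 and 6.10 TPM in the KO adipose libraries and listed at 0 in both WT adipose libraries. The partners therefore ran in opposite directions between the KO adipose libraries, with an Msln to Muc16 ratio of 0.732 in KO adipose 2 and 24.5 in KO adipose 3. Muc16 was also found in spleen, at 0.882 and 1.49 TPM in KO and at 0 and 5.18 TPM in WT. Its level in KO adipose 3 was thus close to that of WT spleen 3.

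The uroplakin gene Upk1b, a tetraspanin, was at 113 and 106 TPM in the KO adipose libraries and listed at 0 in the other 6 libraries. Upk3b, which encodes a uroplakin that spans the membrane once and is a mesothelial marker, was at 20.5 and 52.9 TPM in the KO adipose libraries and also listed at 0 in the other 6. The ratio of Upk1b to Upk3b was 5.51 in KO adipose 2 and 2.00 in KO adipose 3. The rest of the uroplakin family was nearly absent from the table: Upk2 and Upk3bl were listed at 0 in all 8 libraries. Upk3a was above 0 in WT spleen 3 alone. Upk1a, the other tetraspanin of the bladder plaque, was at 3.34 and 0 TPM in the KO adipose libraries and 0.0970 and 0.0594 TPM in the WT ones, so the genotypes overlapped. In spleen both KO libraries (0.621 and 0.633 TPM) lay below both WT libraries (2.27 and 1.33 TPM).

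Nkain4, whose protein family interacts with the beta subunit of the sodium pump, was at 113 and 107 TPM in the KO adipose libraries and listed at 0 in the other 6 libraries. Its level was nearly that of Upk1b in each KO adipose library, with a ratio of 1.01 in both. Nkain1 and Nkain2 were listed at 0 in every library, and Nkain3 did not exceed 0.0219 TPM. Wt1 was the lowest of the 10 genes in KO adipose 2, at 1.06 TPM, and was at 6.86 TPM in KO adipose 3, against 0 in both WT adipose libraries. In the spleen libraries it was above 0 in KO spleen 3 alone, at 0.00955 TPM. The level of 1.06 TPM lay above that of 19.99% of the genes with a value above 0 in KO adipose 2, whereas Nkain4 lay above 89.9% of them.

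Among keratins, Krt19, a type I chain of simple epithelia, was at 16.7 and 144 TPM in the KO adipose libraries, listed at 0 in both WT adipose libraries and at 0 and 0.0319 TPM in KO spleen and 0 in WT spleen. Krt8, the main type II chain of simple epithelia, was at 7.99 and 70.3 TPM in the KO adipose libraries and 0 and 0.732 TPM in the WT ones, and was listed at 0 in the 4 spleen libraries. Krt18, the usual type I partner of Krt8, was at 5.04 and 18.5 TPM in the KO adipose libraries and 0.906 and 0 TPM in the WT ones. In each of these keratins KO adipose 3 was the higher of the KO libraries, and neither KO library overlapped with WT adipose tissue. In spleen, Krt18 was at 0 and 1.86 TPM in KO and at 0 and 3.02 TPM in WT. Krt7, a type II chain found in mesothelium and ducts, was at 2.20 and 9.81 TPM in the KO adipose libraries and 0.00599 and 0.0110 TPM in the WT ones. In both KO spleen libraries it was listed at 0, and the WT spleen libraries had 0.00627 and 0.0214 TPM. GENCODE release M21 lists a processed pseudogene of Krt8, and how the authors assigned reads that fit both is not stated, so the level of Krt8 is uncertain to that extent.

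The type II chains Krt7 and Krt8 together were at 10.2 and 80.1 TPM in the KO adipose libraries, and the type I chains Krt18 and Krt19 together were at 21.7 and 162 TPM. The ratio of type II to type I was 0.470 in KO adipose 2 and 0.494 in KO adipose 3, although both sums were several times larger in KO adipose 3. For Krt8 over Krt19, the more abundant chain of each type among the 4, it was 0.480 and 0.489. The other ratios moved more: Krt8 over Krt18 was 1.59 and 3.79, and Krt7 over Krt8 was 0.276 and 0.140. With 2 libraries these ratios have no error beyond their own difference.

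The table holds 51 keratin genes, of which 16 were listed at 0 in all 8 libraries. At least 1 TPM in both KO adipose libraries was reached by 6 keratins: Krt19, Krt18, Krt8, Krt7, Krt10 and Krt222. Krt10, an epidermal type I chain, was at 8.69 and 5.96 TPM in the KO adipose libraries and between 5.31 and 15.6 TPM in the other 6 libraries, so its groups overlapped. Krt222 was at 1.94 and 2.43 TPM in the KO adipose libraries and between 0.631 and 3.80 TPM in the others. Krt23, Krt14, Krt80 and Krt79 reached 1 TPM in KO adipose 3 but not in KO adipose 2. RefSeq places 26 protein-coding genes on chromosome 15 from Krt7 to Krt18, both included, and 23 of them are in the table. Of these 23, 3 reached 1 TPM in both KO adipose libraries, which were Krt7, Krt8 and Krt18, and 6 were listed at 0 throughout.

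**Figure D2:**
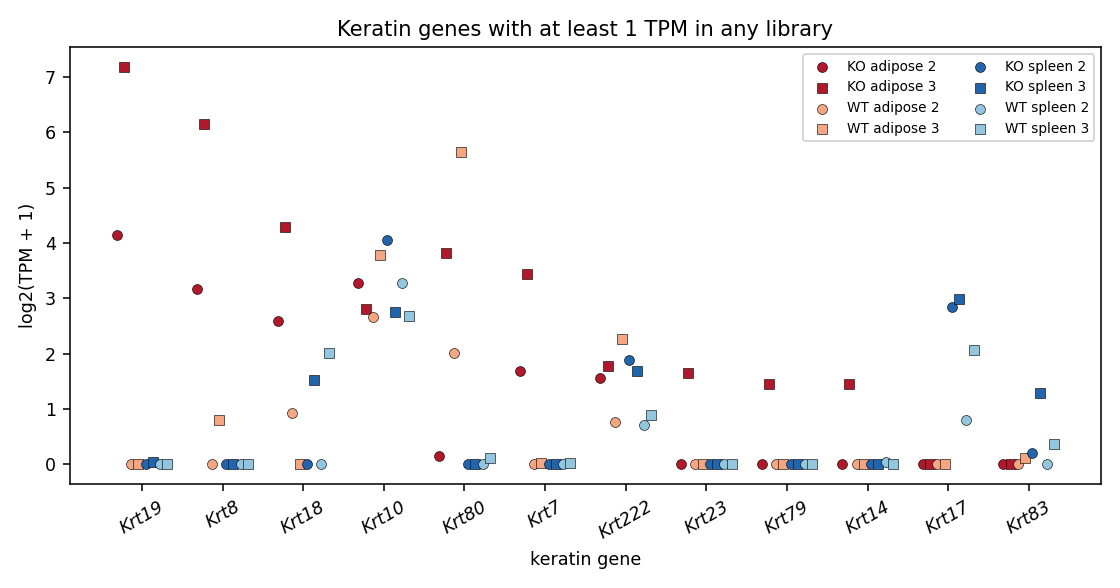
Level as log2(TPM + 1) of the 12 keratin genes with at least 1 TPM in any library, one point per library, with circles for libraries numbered 2 and squares for those numbered 3. Krt19, Krt8, Krt18 and Krt7 are the genes with both KO adipose libraries above the other 6, whereas Krt10 and Krt222 are present in all groups.

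Between KO and WT adipose tissue, both KO libraries lay above both WT libraries for all 10 genes, and the same held for 7.66% of the 13376 genes tested. In the limma fit across all genes, 4 of the 10 passed as higher in KO at an adjusted p under 0.05 (Msln, Upk3b, Upk1b and Nkain4), and 0.277% of all genes did. This contrast chose the genes, so nothing is read from either count. The number was 8 without KO adipose 2 and 2 without WT adipose 2, WT adipose 3 or any 1 of the 4 spleen libraries, and 0 with the 4 adipose libraries alone (genes tested held fixed). Without KO adipose 2 or KO adipose 3 and with the filter on low values applied again, 2 of the 10 were tested and 0 passed. The median difference of the 10 genes on the log2(TPM + 1) scale was 4.68, beside -0.27 over all genes tested. Where WT was listed at 0 no fold is given. For the keratins with a value in WT, the log2(TPM + 1) difference was 4.27 for Krt8, 2.98 for Krt18 and 2.54 for Krt7. Without KO adipose 3 these were 2.77, 2.13 and 1.67, and without KO adipose 2 they were 5.76, 3.82 and 3.42. With a pseudocount of 5 they were 2.55, 1.5 and 1.04, and with one of 0.1 they were 6.37, 4.95 and 5.46. Between adipose tissue and spleen in KO cells, which use the same KO adipose libraries, both adipose libraries lay above both spleen libraries for all 10 genes, beside 22.1% of all genes. In that fit 5 of the 10 were higher, the same 4 and Krt19, beside 0.927% of all genes. The KO adipose values that chose the genes enter both counts, so nothing is read from them. That number was 8 without KO adipose 2 (0 with the filter applied again), 0 without KO spleen 2 and 2 without KO spleen 3, WT spleen 2 or WT spleen 3.

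The spleen libraries took no part in the choice of the genes. There, 0 of the 10 genes differed between KO and WT by limma, with 0 of the 10 and 64 of all genes (0.478%) at an unadjusted p under 0.05, beside 0% of all genes called. The share of 0.478% is low for a threshold of 0.05, so this fit, whose spread comes from all 4 groups, was strict in spleen. With the 4 spleen libraries alone, 268 of the 13376 genes and 0 of the 10 were at that unadjusted p. Msln, Upk3b, Upk1b, Nkain4 and Krt8 were listed at 0 in all 4 spleen libraries, so the comparison holds no information on them beyond that. Krt19, Krt7 and Wt1 did not exceed 0.0319 TPM in spleen and passed the filter through the KO adipose libraries alone. Their result was thereby fixed near 0, and the count bears on Krt18 and Muc16 only. Krt18 had a log2(TPM + 1) difference of -0.25 (SE 0.93, limma adjusted p = 1) and Muc16 one of -0.20 (SE 0.999, limma adjusted p = 1). Each of these 2 genes overlapped between the genotypes, and with errors of this size a p that misses the threshold does not show that the genotypes are alike. The direction of both turned with the libraries used: without WT spleen 3 the values were 0.76 for Krt18 and 1.11 for Muc16, and without KO spleen 2 they were 0.51 and 0.00034. Between adipose tissue and spleen in WT cells, 0 of the 10 genes passed in limma, with 0 of them at an unadjusted p under 0.05, beside 0.164% of all genes called and 13% at that unadjusted p. The genes were chosen in part for low values in WT adipose tissue, so nothing is read from these counts either. Muc16 was listed at 0 in both WT adipose libraries and at 0 and 5.18 TPM in WT spleen.

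Further mesothelial genes, 20 taken from a list that was drawn up with earlier results of these data known, were described in the same way. All 20 were in the table and 15 passed the filter on low values. In KO against WT adipose tissue Igfbp6, Rarres2, Efemp1, Gpm6a, Igfbp5 and Dmkn passed as higher. These were 6 of the 15, with 0 lower, beside 0.277% of all genes higher and 0.00748% lower. The number was 11 without KO adipose 2, 2 without WT adipose 3, 3 without KO spleen 2 or KO spleen 3, 2 with a pseudocount of 0.1 and 0 with the 4 adipose libraries alone. The difference was positive for 19 of the 20 and negative for 0, with a median of 3.57, beside -0.27 over all genes tested. Both KO libraries lay above both WT libraries for 15, beside 7.66% of all genes tested. As the list was drawn up with these data known, nothing is read from these counts. Of the 7 fibroblast genes tested (list described below), 2 passed as higher as well. Gpm6a, a membrane glycoprotein gene of mesothelium, was at 63.3 and 77.6 TPM in the KO adipose libraries and listed at 0 in the other 6 libraries. Cldn15, which encodes a tight junction claudin, was at 50.4 and 189 TPM in the KO adipose libraries and 0 and 4.98 TPM in the WT ones, and did not pass the test. The retinoic acid synthesis gene Aldh1a2 was at 5.72 and 17.9 TPM in the KO adipose libraries and 0 in both WT ones, and did not pass either.

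Slpi, a secreted protease inhibitor gene, was at 21.7 and 601 TPM in the KO adipose libraries and 7.49 and 0 TPM in the WT ones, and WT spleen 2, at 45.7 TPM, lay above KO adipose 2. Lrrn4, a leucine-rich repeat gene of mesothelium, was at 6.37 and 14.2 TPM in the KO adipose libraries and at 5.64 and 3.20 TPM in the WT ones, a log2 difference of 1.003 that did not pass the test. Rspo1, a Wnt agonist gene, was at 13.1 and 17.3 TPM in the KO adipose libraries and at 0 and 5.29 TPM in the WT ones. The transcription factor genes Bnc1, Gata6 and Gata4 were at 0, 0.0125 and 0 TPM in KO adipose 2 and at 2.34, 1.67 and 0.779 TPM in KO adipose 3. Calb2, which encodes calretinin, a pathology marker of human mesothelium, was listed at 0 in all 8 libraries. Epcam, an epithelial adhesion gene, was at 106 and 18.6 TPM in the KO adipose libraries and at 39.9 and 45.5 TPM in the WT ones, with 36.8 to 60.7 TPM in spleen. Its groups overlapped. Cdh1, which encodes E-cadherin, was at 0 and 0.0832 TPM in the KO adipose libraries and at 2.62 and 0 TPM in the WT ones. Both belong to a list of 10 epithelial junction and adhesion genes, with a positive difference for 4 and a negative one for 3. Both KO adipose libraries lay above both WT ones for 2 of the 10, beside 7.66% of all genes tested. Tjp1 was at 1.37 and 15.5 TPM in KO and 0 and 0.475 TPM in WT. Pkp2 was at 2.00 and 0.525 TPM in KO and 0 in WT.

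The 2 KO adipose libraries differed from each other in the balance among the 10 genes. KO adipose 3 was higher than KO adipose 2 for 7 of them, beside 59.7% of all genes tested, by 8.79 times for Krt8, 8.62 for Krt19, 6.47 for Wt1, 6.06 for Msln, 4.45 for Krt7, 3.68 for Krt18 and 2.59 for Upk3b. For Nkain4 and Upk1b the ratio was 0.945 and 0.937, and for Muc16 it was 0.181. Nkain4 and Upk1b made up 33.5% and 33.4% of the sum in KO adipose 2, and 16.0% and 15.8% in KO adipose 3. Msln and Krt19 made up 22.3% and 21.4% in KO adipose 3, and 7.30% and 4.93% in KO adipose 2. The median log2(TPM + 1) difference of KO adipose 3 minus KO adipose 2 was 1.72 over the 10 genes, 0.96 over the other mesothelial genes and 0.25 over all genes tested. Among the other mesothelial genes, the matrix gene Efemp1 was at 333 and 128 TPM, and Igfbp5, which encodes a binding protein of insulin-like growth factors, was at 26.7 and 21.7 TPM.

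**Figure D3:**
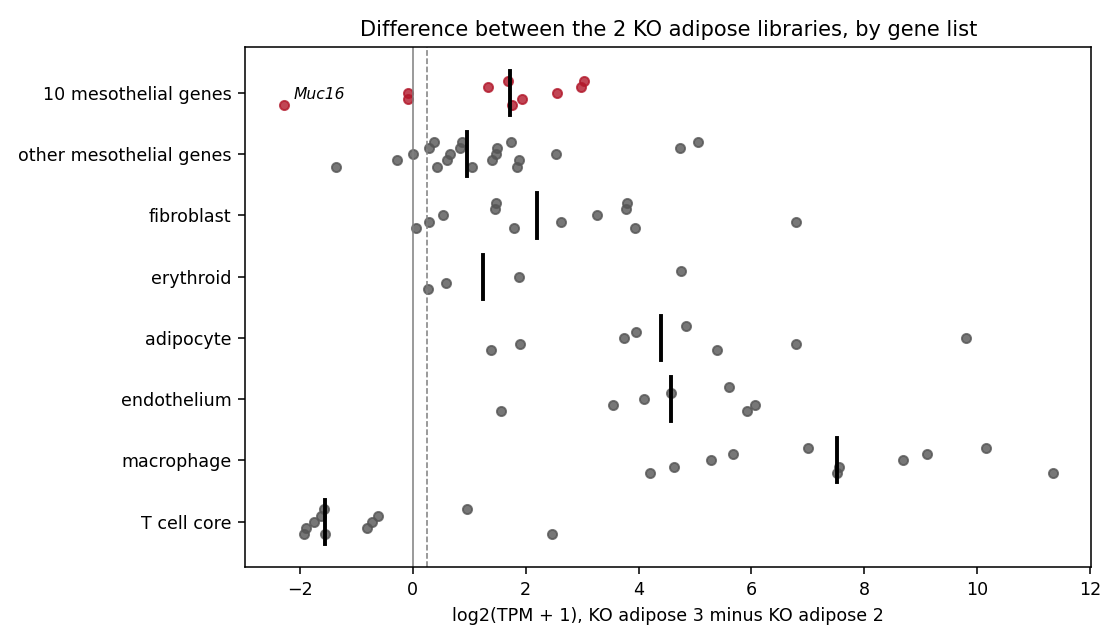
Difference of log2(TPM + 1) between the 2 KO adipose libraries, 1 point per gene and a bar at the median of each list, with a dashed line at the median of all genes tested (0.25). The 10 mesothelial genes have a median of 1.72, the 11 macrophage genes 7.52 and the 11 T cell core genes -1.55.

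Genes of other cell types were also present in the KO adipose libraries, and their part in the result was not tested. The 12 fibroblast genes, matrix and receptor genes of connective tissue, summed to 449.7 and 2767 TPM in the KO adipose libraries and to 2.10 and 8.03 TPM in the WT ones, and to at most 1.10 TPM in spleen. Dcn, which encodes the matrix proteoglycan decorin, alone made up 404 and 2493 TPM of the KO sums. Lum, Pdgfrb and Pdgfra were listed at 0 in KO adipose 2, and Pdgfra, a defining receptor gene, was at 0.0339 TPM in KO adipose 3. As with the 10 mesothelial genes, both KO adipose sums lay above all the others.

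The 11 macrophage genes did not. They summed to 15.8 TPM in KO adipose 2, with 4 of 11 listed at 0, and to 11182 TPM in KO adipose 3, against 9.43 and 21.0 TPM in WT adipose tissue and 13.3 to 614 TPM in spleen. Gene by gene, both KO adipose libraries lay above both WT ones for 4 of the 11, beside 7.66% of all genes tested. Among them C1qb was at 5.78 TPM in KO adipose 2, against 0.699 and 0.214 TPM in WT adipose tissue. The 10 mesothelial genes summed to 338 TPM in KO adipose 2, and a link with the macrophage genes was not tested. The 8 adipocyte genes summed to 54.2 and 14386 TPM in the KO adipose libraries and to 6.66 and 2124 TPM in the WT ones, with Fabp4, a fatty acid binding protein gene, at 14.2 and 13591 TPM in KO and 3.11 and 1991 TPM in WT. In WT adipose 3, 8 of the 10 mesothelial genes were listed at 0, and a link with the adipocyte genes was not tested. The 7 endothelium genes summed to 16.3 and 652 TPM in the KO adipose libraries and to 38.2 and 95.3 TPM in the WT ones, and to between 5.59 and 28.1 TPM in spleen. Pecam1 alone made up nearly all of the sum in WT adipose 2 (38.2 TPM) and in spleen (5.57 to 28.0 TPM), and was at 6.96 TPM in KO adipose 2. Both KO adipose libraries lay above both WT ones for 1 of the 7, Kdr, at 6.23 and 83.5 TPM in KO and 0 and 5.46 TPM in WT.

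Erythroid genes, of which 4 of 7 are in the table, summed to 6858 and 8334 TPM in the KO adipose libraries and to 20.05 and 711 TPM in the WT ones. In the spleen libraries the sums were 187 and 13401 TPM in KO and 2193 and 5214 TPM in WT. The highest erythroid sum was in KO spleen 3, where the 10 mesothelial genes summed to 3.39 TPM, and a link was not tested. B cell genes, 5 in all, summed to 56.1 and 12.1 TPM in the KO adipose libraries and to 46.1 and 26.5 TPM in the WT ones, and were higher in all 4 spleen libraries, at 80.3 to 431 TPM.

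**Figure D4:**
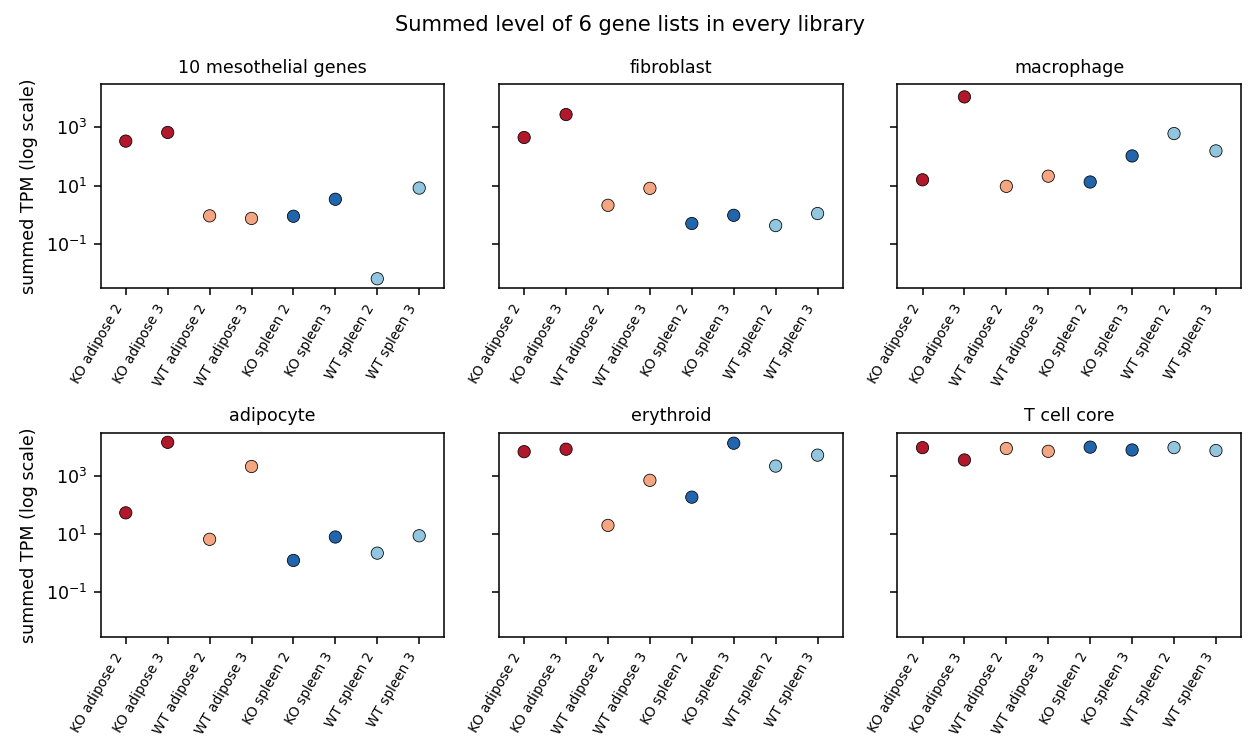
Summed TPM of 6 gene lists in each library, on a log axis, with KO adipose tissue, WT adipose tissue, KO spleen and WT spleen from left to right. The 10 mesothelial genes and the fibroblast genes are high in both KO adipose libraries, while the macrophage genes are high in KO adipose 3 (11182 TPM) and not in KO adipose 2 (15.8 TPM).

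The genes whose pattern was most like that of the 10 were sought by Pearson's r over the 8 libraries, between a gene's log2(TPM + 1) and the mean of the 10, among 8959 other genes whose mean over the KO adipose libraries reached 5 TPM. Of these, 90 genes (1.005%) had r of at least 0.95. The closest 8 were Ptgis, Gjb5, Sod3, Chst4, Aebp1, Ano1, Ogn and C1qtnf2. Ptgis, which encodes prostacyclin synthase, was at 19.96 and 40.8 TPM in the KO adipose libraries and listed at 0 in WT adipose tissue (r = 0.998). Gjb5, a gap junction connexin gene, was at 9.94 and 25.9 TPM and listed at 0 in the other 6 libraries (r = 0.997). Sod3 encodes the extracellular superoxide dismutase, Aebp1 and Ogn matrix proteins, and Ano1 a chloride channel opened by calcium. These genes share a feature with the 10, that both KO adipose values are high, and r over 8 points rests largely on that.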

How the data were processed

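The deposited table holds TPM, identified from its values: the mean of the sums of the 8 columns, rounded, is 1000000. The genome build was mm9, per the submitters' processing notes. No source used here gives the aligner, the counter or the gene models. cDNA came from a SMARTer v4 kit and libraries from a Nextera XT kit, per the labels. TPM keeps no read depth, so depth is unknown and no interval or floor that needs it is printed. Promoter sequences and gene order came from RefSeq GRCm38.p6, and no coordinates were taken from the table.

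From the TPM, log2(TPM + 1) was fitted with limma 3.58.1 (R 4.3.3, variance trend), with 1 mean per group over all 8 libraries and 4 residual degrees of freedom. The 13376 genes reaching 1 TPM in 2 or more libraries were tested. Benjamini-Hochberg adjustment ran over all of them in each contrast, at a threshold of 0.05. The fit assumes the same spread in all groups. It was tested on simulated data of equal spread, and unequal spread was not simulated. SE is limma's moderated standard error. The 10 genes, the lists and the tests were chosen with earlier results of these data known. All 10 genes are named. Of each list up to 6 genes with the highest mean in KO adipose tissue and genes at 0 throughout may be named, and any other named gene was picked with its values in view. The 8 genes of most similar pattern are named by their r.

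Libraries of the same number are called experiments per the file headers. Their differences between experiments correlated across genes at r = 0.128 to 0.382 over the pairs of groups, so the number may pair them. The alternatives were other pseudocounts, filters and scaling, a replicate block, the compared libraries alone, and leaving out each library.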

Additional observations from a re-analysis of the deposited data

Results flagged for a closer look

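Krt7 met the criterion for a difference in opposite directions between tissues. KO minus WT was positive in both experiments in adipose tissue and negative in both in spleen, where it was -0.00627 TPM in experiment 2, with Krt7 at 0 TPM in KO spleen 2 and 0.00627 TPM in WT spleen 2. The difference between tissues was not tested, and the spleen levels are near 0.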

How the results depend on the processing

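The number of the 10 genes called in KO against WT adipose tissue (4) was 2 with a pseudocount of 0.1, 2 with no filter on expression, 2 with one at 5 TPM (8 of the 10 tested) and 0 with the 4 adipose libraries alone. Leaving out 1 library gave 2 to 8: 8 without KO adipose 2, and 2 without WT adipose 2, WT adipose 3 or any of the 4 spleen libraries, with the genes tested held fixed. With the filter applied again to the 7 libraries left it was 0 to 2, with 2 of the 10 tested without KO adipose 2 or 3. Holding the genes fixed was preferred after the values with the filter applied again had been seen. With the replicate block it was 4. For the KO contrast of adipose tissue with spleen (5) it was 3 with a pseudocount of 5, 2 without a filter and 2 with the 4 KO libraries alone. Leaving out 1 library gave 0 to 8: 8 without KO adipose 2, 0 without KO spleen 2, and 2 without KO spleen 3, WT spleen 2 or WT spleen 3. With the filter applied again it was 0 to 5. With the replicate block it was 6. For the other mesothelial genes, higher in KO adipose tissue in 6 cases, it was 2 with a pseudocount of 0.1, 0 with the 4 adipose libraries alone, 2 (without WT adipose 3) to 11 (without KO adipose 2) when 1 library was left out, 3 with either KO spleen library left out, and 7 with the replicate block. The cause of these changes was not tested. In KO against WT spleen, and in adipose tissue against spleen in WT, limma called 0 of the 10 under all 15 alternatives chosen at the outset and the added one, the replicate block included. With the filter at 5 TPM, 8 of the 10 were tested in these contrasts. Without KO adipose 2 or 3 and with the filter applied again, 2 of the 10 were tested. In spleen the log2 difference of Muc16 turned to 0.78 with a pseudocount of 0.1 and 0.035 with quantile normalization. Leaving out 1 library moved it from -1.51 to 1.11, and that of Krt18 from -1.25 to 0.76. Each of the 10 genes kept a positive difference in KO against WT adipose tissue under all alternatives that tested it. Read depth is unknown, so how far it limits values near 0 cannot be given.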

Other observations

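Keratins outside the 10 genes showed other patterns, and were picked after their values were seen. Krt80, a type II chain, was at 0.113 and 13.0 TPM in KO and at 3.05 and 49.2 TPM in WT adipose tissue, so that its highest level was in a WT library, and it was at most 0.0851 TPM in spleen. Krt17, a type I chain, was at 6.17 and 6.94 TPM in KO and at 0.741 and 3.16 TPM in WT spleen, and was listed at 0 in all 4 adipose libraries. Jup, which encodes the junction protein plakoglobin, was at 1.16 and 58.0 TPM in KO and at 0.644 and 29.9 TPM in WT adipose tissue, higher in experiment 3 in both genotypes.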
